A study of Mus musculus with 12 samples.

Results

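A set of 9 genes of the B cell receptor signalling pathway was followed through LPS-driven differentiation of mouse B cells. The 9 members were the kinases Lyn, Blk, Syk, Btk and Prkcb, the adaptors Blnk and Pik3ap1, the phospholipase Plcg2 and the exchange factor Vav1, each taken as the row of the count table that carries the mouse Entrez ID of its symbol. They were 9 of 27179 genes in the table and 9 of 13195 that passed the filter on low counts, so that no member was lost. The RNA-Seq data comprised 12 libraries of splenic B cells from male C57BL/6 mice, 2 for each of 6 stages. Naive B cells were sorted by surface markers that included B220, IgM and high IgD, without TCRβ. Cells activated with lipopolysaccharide (LPS), a bacterial Toll-like receptor ligand, were sorted at 3, 10 and 33 h as TCRβ- cells positive for the activation marker CD69 and with the highest CellTrace Violet signal, a dye that is diluted at each division, so that these cells had not divided. On day 4 of LPS culture, expanded B cells were sorted as CD22+CD138-, and plasmablasts, which secrete antibody, as CD22-CD138+. The day 4 cultures were set up at a lower cell density than those sorted at 3, 10 and 33 h. No genotype differed between stages. Every activated stage had received LPS and none a ligand of the B cell receptor, and cells that were activated had first been isolated by negative selection, whereas the naive cells were sorted directly.

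The B cell receptor has no enzymatic activity of its own. When it binds antigen, Src family kinases such as Lyn and Blk phosphorylate the tails of Cd79a and Cd79b, Syk docks there, and the adaptor Blnk gathers Btk, Plcg2 and Vav1 into a complex. Plcg2 then produces the messengers that release calcium and, with calcium, activate the protein kinase C isoform encoded by Prkcb, which leads to NF-κB, while Pik3ap1 (BCAP) recruits PI3-kinase.

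Library depth ran from 23026619 to 60585587 counts, with a median of 37839944.5, and the members were sampled deeply, with 1932 counts in the shallowest case (Lyn in plasmablast replicate 1) and 72804 in the deepest (Prkcb in 33 h replicate 1). Levels are given as RPKM, reads scaled by exon length and by TMM-corrected library size, as mean ± SD of n = 2. All 5 B cell markers, among them Ms4a1, Cd79a, Cd79b and Pax5, were detected at every stage. Their sum was 8131 to 8434 CPM in naive libraries, 3434 to 4194 CPM from 3 h to expanded cells, and 2044 and 2101 CPM in plasmablasts. The summed plasmablast markers Sdc1, Prdm1, Xbp1, Irf4 and Jchain were highest in plasmablasts, at 16396 and 16909 CPM. Myeloid RNA was highest in the naive libraries. The sum of 7 myeloid markers was 220 and 103 CPM in naive replicates 1 and 2 and 2.43 to 37.5 CPM in the other libraries before the plasmablast stage (0.341 and 0.582 CPM in plasmablasts), and Lyz2, S100a8 and Mpo were at 0 counts in every 33 h, expanded and plasmablast library. The sum of erythroid and platelet markers, mostly Hba-a1, was 66.3 to 90.3 CPM in naive libraries and at most 1.07 CPM elsewhere. In plasmablasts the T cell list summed to 65.8 and 72.7 CPM, of which Cd28 gave 64.3 and 71.6 CPM, while Cd3e, Cd8a and Bcl11b were at 0. In naive replicates 1 and 2 the T cell list summed to 3.16 and 3.41 CPM, with all 7 genes detected. At 3 h it summed to 0.0434 and 0.184 CPM, and in expanded cells to 3.13 and 4.72 CPM. NK cell markers summed to 4.98 and 4.08 CPM in the naive libraries and to at most 1.02 CPM in every other library. In bulk samples of this kind, fewer cells of a type and less RNA per cell cannot be told apart.

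All 9 members were well expressed. By mean RPKM over the 12 libraries they ranked between 325 (Syk) and 1861 (Vav1) of the tested genes, at or above the 85.9th percentile. The sum of the 9 members was 1450 and 1463 RPKM in the naive libraries, 1041 and 986 after 3 h, 829 and 828 after 10 h, 1098 and 998 after 33 h, 1045 and 1016 in expanded cells, and 828 and 846 in plasmablasts. The sum was therefore highest in the naive libraries, and 10 h and plasmablasts shared the lowest values. In naive cells the order per length ran from Syk (261 ± 8.35 RPKM), the kinase that docks on the receptor, down to Vav1 (66.0 ± 4.48), an activator of Rac. In plasmablasts it ran from Blnk (300 ± 9.31 RPKM) down to Prkcb (20.8 ± 0.550).

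**Figure D1:**
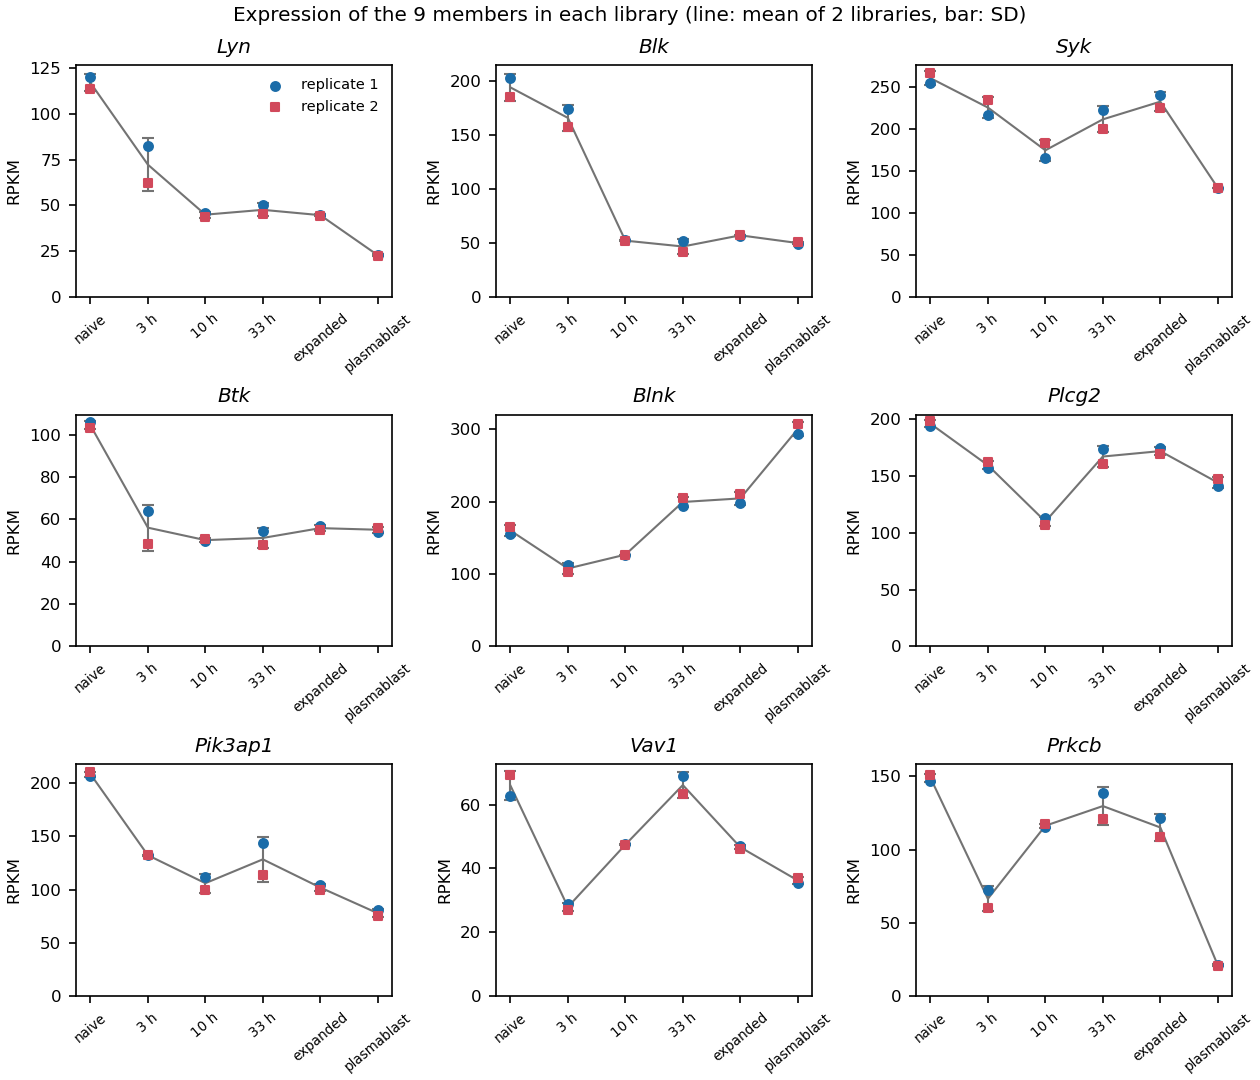
RPKM of each of the 9 members (vertical axis, from 0) at the 6 stages (horizontal axis), with circles for replicate 1, squares for replicate 2, a line through the means and bars for the SD. In all, 7 members were highest in naive cells, Blnk was highest in plasmablasts, and Vav1 reached 66.1 RPKM at 33 h, level with its naive 66.0.

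Differential expression between stages was tested with edgeR's glmTreat, in which a gene was called where its fold change was significantly above 1.5 (Benjamini-Hochberg adjusted p under 0.05 over all 13195 genes). The F-test for a change of any size is given beside it. From naive to 3 h, 3 of the 9 members were called, all down (Btk, Vav1 and Prkcb), against 45% of all tested genes called in either direction and 24.2% called down. All 9 had a lower mean at 3 h, 8 passed the F-test downward, against 36.2% of all genes, and the naive and 3 h libraries overlapped for no member, against 82.5% of all genes without overlap. Their median log2 fold change was -0.66, beside -0.03 over all genes. At the same transition all 7 myeloid markers were called down, and myeloid cells also express Lyn, Syk, Btk, Plcg2, Pik3ap1 and Vav1. The 2 naive libraries differed in their myeloid sums as given above, while the 9 members differed between these same libraries by -0.13 to 0.14 on the log2 scale. Of other cell types, 4 of 5 tested T cell markers were called down from naive to 3 h. So were all 4 NK cell markers and all 3 tested erythroid and platelet markers. The part of RNA of myeloid and these other cells in the naive levels was not tested. Of the 5 B cell markers 4 were also called down at this transition, and all 5 between naive cells and plasmablasts, and their part in the members' changes was not tested.

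From 3 to 10 h, 3 members were called, Vav1 and Prkcb up and Blk down, against 30.5% of all genes. The F-test passed 3 members upward, the third being Blnk, and 5 downward, against 32% and 30% of all genes, and the members' median log2 fold change was -0.32 beside 0.02 over all genes. From 10 to 33 h none of the 9 was called, against 14.4% of all genes, and 5 passed the F-test upward (Syk, Blnk, Plcg2, Pik3ap1 and Vav1), against 23.1% of all genes that did so. From 33 h to expanded cells none was called either, against 10.4%, and the F-test passed Blk upward and Pik3ap1 and Vav1 downward, against 18.5% and 20.8%. The transition from expanded cells to plasmablasts brought 3 calls, all down (Syk, Lyn and Prkcb), against 26.1% of all genes in either direction and 12.1% down. There the F-test passed 6 members downward and Blnk upward, against 29.6% and 27.2%, and the median log2 fold change was -0.37 beside -0.04 over all genes. The libraries did not overlap for 8, 7, 6 and 8 members over these last 4 transitions, beside 78.3%, 74.1%, 73.2% and 82.9% of all genes.

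Over the whole course, from naive cells to plasmablasts, 8 members were called, 7 down and Blnk up, against 49.8% of all genes in either direction and 23.3% down. The comparison of naive with expanded cells called 4 members, all down (Lyn, Blk, Btk and Pik3ap1), against 47% and 22.1%. Both comparisons use the same naive libraries, so that their calls are not independent. Plcg2 was the member not called between naive cells and plasmablasts, at a log2 fold change of -0.44 (95% interval -0.61 to -0.28, adjusted p = 1), although it passed the F-test (adjusted p = 0.00012). Both libraries of a stage enter each of these tests, and labels of 2 against 2 libraries alone could not reach p below 0.333 by exact permutation, so that the p-values rest on the spread shared over genes and stages.

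**Figure D2:**
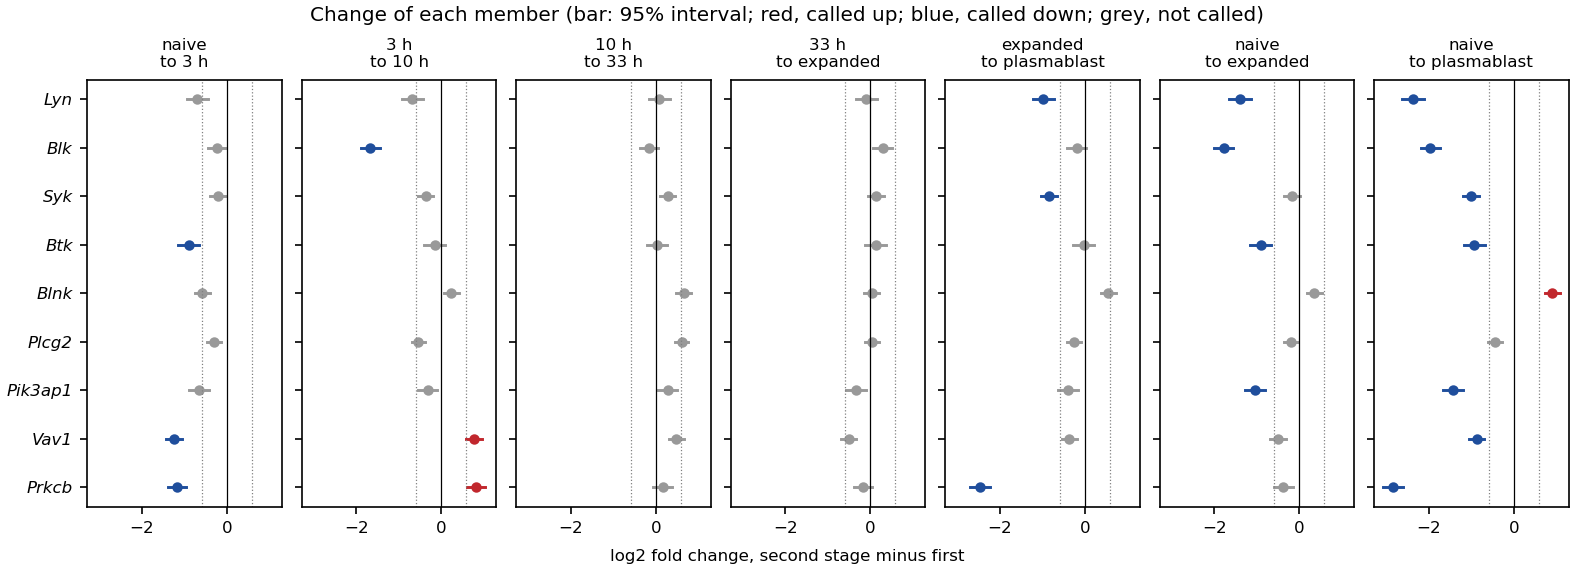
Log2 fold change of each member (horizontal axis, second stage minus first) for 5 successive transitions and for naive cells against expanded cells and plasmablasts, with 95% intervals, a solid line at 0 and dotted lines at a fold change of 1.5. Blue members were called down, red members up and grey members were not called; the widest change was that of Prkcb between naive cells and plasmablasts, at -2.84.

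Lyn and Blk, the Src family kinases that start the cascade, both ended far below their naive level but lost expression at different times. Lyn, which also phosphorylates inhibitory receptors such as Cd22, stood at 120 and 114 RPKM in the naive libraries, 82.5 and 62.2 after 3 h, 46.0 and 43.8 after 10 h, 50.1 and 45.1 after 33 h, 45.0 and 44.3 in expanded cells, and 23.1 and 22.4 in plasmablasts. Its levels thus fell into 4 steps, since 10 h, 33 h and expanded cells could not be separated (F-test, adjusted p of 0.58 and 0.96 between neighbours) and the other steps were (adjusted p of 0.00036 or less). Neither of the early steps reached a call (log2 fold change -0.70, SE 0.11, adjusted p = 0.12 from naive to 3 h, and -0.69, adjusted p = 0.18 from 3 to 10 h), and the libraries of no other stage lay as far apart for this gene as those of 3 h. Without 3 h replicate 1 the former was -0.91 (adjusted p = 0.00096), and without 3 h replicate 2 the latter was -0.91 (adjusted p = 0.0014). From expanded cells to plasmablasts Lyn fell by 0.97 on the log2 scale (SE 0.12, adjusted p = 0.003), and over the whole course it was 5.16-fold lower (adjusted p = 5.1e-09).

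Blk, a kinase largely restricted to the B lineage, was not called at 3 h and was far lower at 10 h. It measured 202 and 185 RPKM in naive cells, 174 and 157 after 3 h, 52.2 and 51.7 after 10 h, 51.3 and 41.7 after 33 h, 56.5 and 57.2 in expanded cells, and 48.9 and 50.5 in plasmablasts. Naive and 3 h libraries were all above 150 RPKM and all 8 later libraries below 60. The difference of naive and 3 h was -0.23 (95% interval -0.44 to -0.01, F-test adjusted p = 0.056), whereas from 3 to 10 h Blk fell by 1.67 on the log2 scale (SE 0.10, adjusted p = 5.8e-07), or 3.19-fold. After that no transition was called, and the neighbours in the order of the 4 later stages did not pass the F-test (adjusted p from 0.28 to 0.59), although expanded cells lay above 33 h by it (log2 fold change 0.29, adjusted p = 0.036).

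Syk had the highest mean of the 9 at every stage before plasmablasts, although its 33 h libraries overlapped those of Blnk, and it was called at the plasmablast transition alone of the 5. It stood at 255 and 267 RPKM in naive cells, 217 and 235 after 3 h, 166 and 184 after 10 h, 223 and 201 after 33 h, 241 and 225 in expanded cells, and 130 and 130 in plasmablasts. Naive and expanded cells, expanded cells and 3 h, and 3 h and 33 h were neighbours whose difference did not pass the F-test (adjusted p from 0.097 to 0.65), although naive cells and 3 h did differ by it (log2 fold change -0.21, adjusted p = 0.042), while the 10 h dip was seen by the F-test on either side (adjusted p = 0.002 and 0.018). In plasmablasts Syk fell by 0.84 on the log2 scale relative to expanded cells (SE 0.09, 95% interval -1.03 to -0.66, adjusted p = 0.0059), and both plasmablast libraries lay under every other library. This call was lost by DESeq2's Wald test (adjusted p = 0.064) and without expanded replicate 1 (adjusted p = 0.057).

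Btk, the Tec family kinase whose loss causes agammaglobulinaemia, showed a single early step. Its level was 106 and 103 RPKM in naive cells, 63.8 and 48.4 after 3 h, 49.6 and 50.8 after 10 h, 54.4 and 48.0 after 33 h, 57.0 and 54.8 in expanded cells, and 54.2 and 56.1 in plasmablasts. Both naive libraries lay above the other 10, and none of the 4 neighbouring pairs among the activated stages passed the F-test (adjusted p from 0.43 to 0.99). The fall from naive to 3 h was 0.90 on the log2 scale (SE 0.11, adjusted p = 0.0051), and in plasmablasts Btk was still 1.90-fold below naive cells (adjusted p = 0.0029). Btk lies on the X chromosome, and genes of that chromosome were kept in the tests for its sake.

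Blnk, the adaptor that brings Btk and Plcg2 together, was the member whose expression rose over the course. It measured 155 and 165 RPKM in naive cells, 113 and 102 after 3 h, 127 and 127 after 10 h, 194 and 205 after 33 h, 198 and 211 in expanded cells, and 294 and 307 in plasmablasts. The 3 h libraries were the lowest and the plasmablast libraries the highest, without overlap with any other stage. No single transition was called for it. The largest were a log2 fold change of 0.66 from 10 to 33 h (SE 0.08, adjusted p = 0.31), -0.57 from naive to 3 h (SE 0.08, adjusted p = 0.47) and 0.55 from expanded cells to plasmablasts (SE 0.08, adjusted p = 0.77), and each passed the F-test (adjusted p = 3.1e-05, 2.9e-05 and 6.4e-05). From naive cells to plasmablasts the rise was called, at 0.91 on the log2 scale (SE 0.08, 1.88-fold, adjusted p = 0.00043). With library size alone as the scaling it was 0.63 and not called (adjusted p = 0.18).

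Pik3ap1 encodes BCAP, the adaptor through which PI3-kinase joins the complex. Its values were 207 and 210 RPKM in naive cells, 132 and 132 after 3 h, 112 and 99.6 after 10 h, 144 and 113 after 33 h, 104 and 99.3 in expanded cells, and 80.3 and 75.0 in plasmablasts. Naive libraries were the highest and plasmablast libraries the lowest, with the middle stages partly overlapping. Each of the 5 transitions passed the F-test (adjusted p from 8.9e-05 to 0.046) and none reached a call, but the steps added up to a log2 fold change of -1.04 in expanded cells (SE 0.11, adjusted p = 0.00032) and -1.43 in plasmablasts (SE 0.11, 2.69-fold lower, adjusted p = 1.4e-06).

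Plcg2, the phospholipase that turns the signal into calcium and diacylglycerol, varied least of the 9, with a highest stage 1.78-fold above the lowest. It stood at 194 and 198 RPKM in naive cells, 157 and 162 after 3 h, 113 and 107 after 10 h, 174 and 161 after 33 h, 175 and 170 in expanded cells, and 141 and 147 in plasmablasts. The 10 h libraries were below all others and the naive libraries above all others. The 10 h level differed from both of its neighbours in time by the F-test (log2 fold change -0.54 from 3 h, adjusted p = 3.8e-05, and 0.60 to 33 h, adjusted p = 3.1e-05), without a call in any of the 7 comparisons.

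Vav1 and Prkcb both fell by 3 h and were called up from 3 to 10 h. Vav1, which activates Rac and supports calcium entry, measured 62.8 and 69.2 RPKM in naive cells, 28.8 and 26.9 after 3 h, 47.5 and 47.3 after 10 h, 68.9 and 63.3 after 33 h, 47.0 and 46.2 in expanded cells, and 35.5 and 36.9 in plasmablasts. The 3 h libraries were the lowest of the 12, and the naive and 33 h libraries overlapped at the top (F-test, adjusted p = 0.98). The 10 h level was still below the naive one (F-test, adjusted p = 0.00019). Vav1 fell by 1.24 on the log2 scale from naive to 3 h (SE 0.08, 2.37-fold, adjusted p = 1.8e-06) and rose by 0.77 from 3 to 10 h (SE 0.08, adjusted p = 0.022). Over the whole course it was 1.82-fold lower in plasmablasts (adjusted p = 0.0013).

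Prkcb, the kinase between diacylglycerol and NF-κB, had the largest called rise of the 9 between successive stages and the largest fall. It stood at 147 and 151 RPKM in naive cells, 72.4 and 60.2 after 3 h, 115 and 117 after 10 h, 139 and 121 after 33 h, 122 and 109 in expanded cells, and 21.2 and 20.4 in plasmablasts. Plasmablast libraries lay far below all others and 3 h libraries next, while naive cells, 33 h, 10 h and expanded cells, in that order, did not pass the F-test as neighbours (adjusted p = 0.089, 0.22 and 0.91), but expanded cells lay below naive cells by the F-test (log2 fold change -0.37, adjusted p = 0.0044). It fell by 1.17 on the log2 scale from naive to 3 h (SE 0.10, adjusted p = 2.8e-05), rose by 0.81 from 3 to 10 h (SE 0.10, adjusted p = 0.02) and fell by 2.47 from expanded cells to plasmablasts (SE 0.11, 5.52-fold, adjusted p = 7.5e-09). The log2 fold change from naive cells to plasmablasts was -2.84, or 7.15-fold lower (adjusted p = 2.8e-10). The rises from 3 to 10 h were the least firm calls. That of Vav1 was lost in 8 and that of Prkcb in 6 of 23 alternative analyses, among them DESeq2's test (adjusted p = 0.65 and 0.56) and the analyses without 3 h replicate 2 (0.12 and 0.23), without 10 h replicate 1 (0.067 and 0.05, the latter just above the threshold before rounding) and without 10 h replicate 2 (0.056 and 0.06), and both genes remained higher at 10 h in each.

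Promoters are shown for 3 of the 7 members with a sequence, Prkcb and Vav1, which were called down and then up in the early hours, and Blnk, which ended higher. Each is the 250 bases before a RefSeq start on GRCm38.p6, 5′ to 3′ in the direction of the gene. The windows are chr7:122288875-122289124 (+ strand) for Prkcb, chr17:57278850-57279099 (+) for Vav1 and chr19:40994222-40994471 (-) for Blnk. The annotated span of Prkcb begins at 122289104, so its window runs into that span. Distances to a start are counted from the end of the window. Capitals mark exact matches, on either strand, to 9 short motifs that were searched.
Prkcb: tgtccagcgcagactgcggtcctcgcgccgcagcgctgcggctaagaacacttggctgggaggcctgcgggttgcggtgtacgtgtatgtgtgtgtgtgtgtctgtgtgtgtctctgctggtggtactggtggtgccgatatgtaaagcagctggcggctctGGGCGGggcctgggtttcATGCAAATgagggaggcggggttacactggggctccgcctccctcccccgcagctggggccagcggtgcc
Vav1: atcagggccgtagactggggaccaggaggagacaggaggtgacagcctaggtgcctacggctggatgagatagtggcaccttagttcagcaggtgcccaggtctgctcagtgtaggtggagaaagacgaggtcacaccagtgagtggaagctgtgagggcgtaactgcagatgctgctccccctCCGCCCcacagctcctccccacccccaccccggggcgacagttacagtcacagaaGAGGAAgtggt
Blnk: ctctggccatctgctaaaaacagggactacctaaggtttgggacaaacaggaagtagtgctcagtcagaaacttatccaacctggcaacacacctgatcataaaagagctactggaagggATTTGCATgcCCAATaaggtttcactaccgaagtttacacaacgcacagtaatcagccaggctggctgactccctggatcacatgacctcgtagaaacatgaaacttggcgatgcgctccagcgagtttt
The Prkcb and Blnk windows both held the octamer ATTTGCAT, the site of Oct-1 and Oct-2, 130 bases before the start in Blnk and, as ATGCAAAT, 70 bases before it in Prkcb. This motif occurred in 1.6% of 32851 promoter windows of the same length. The core site of PU.1, GAGGAA, lay 11 bases before the start of Vav1, 11 before that of Pik3ap1 and 9 before the downstream start of Syk, and occurred in 23.3% of all windows. The GC box GGGCGG was found in Prkcb, in Plcg2 at 2 places and, as CCGCCC, in Vav1, beside 32.7% of all windows. CACGTG, the E-box of Myc, was found in Plcg2 and Pik3ap1, beside 6.02%, and CCAAT in Blnk, beside 33.8%. None of the windows of the 7 members in the table held the Ebf1 palindrome (0.779% of all windows), the NF-κB motif (0.356%), the Blimp-1 core GTGAAAG (3.57%) or TATAAA (12.4%). These matches describe the letters of the windows, and binding was not measured.

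Of 24 close relatives of the members, 22 were tested, all but Bmx and Clnk. From naive to 3 h, 4 of the 22 were called up and 12 down (72.7%, beside 45% of all genes in either direction). Calls from 3 to 10 h were 1 up and 7 down (36.4% beside 30.5%). Between 10 and 33 h, 5 were called up and 2 down (31.8% beside 14.4%). From 33 h to expanded cells 3 were called up and 3 down (27.3% beside 10.4%). From expanded cells to plasmablasts 5 were called up and 7 down (54.5% beside 26.1%). For 3 members the relatives were negligible. Syk made up at least 99.4% of the summed mean RPKM of Syk and Zap70 at each stage, Blnk at least 99.4% of Blnk and Lcp2, and Plcg2 96.3% to 98.0% of Plcg2 and Plcg1. Zap70, Lcp2 and Plcg1 are the counterparts that T cells use.

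In the Src family the mix of kinases changed. Fyn, a relative of Lyn better known from T cells, was 17.1 and 15.3 RPKM in naive cells, 91.8 and 73.1 after 3 h, and then 8.01 to 14.2 RPKM up to expanded cells, before 40.7 and 40.2 in plasmablasts. It rose by 2.35 on the log2 scale from naive to 3 h (adjusted p = 7.5e-09), fell by 3.29 from 3 to 10 h (adjusted p = 3.2e-09) and rose by 1.54 in plasmablasts (adjusted p = 2.7e-06). Its share of the family's RPKM went from 3.84% ± 0.169 in naive cells to 23.3% ± 1.57 after 3 h and 33.9% ± 0.331 in plasmablasts, where Blk held 41.6% ± 0.940 and Lyn 19.0% ± 0.448. The family as a whole went from 421 ± 15.4 RPKM in naive cells to 138 ± 9.02 after 10 h and 119 ± 0.155 in plasmablasts.

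Prkcb led the protein kinases C at 4 stages, but not at 3 h or in plasmablasts. It held 58.6% ± 1.25 of the family's RPKM in naive cells, 29.0% ± 0.617 after 3 h, 61.4% ± 0.964 after 10 h, 64.6% ± 1.12 after 33 h, 55.0% ± 2.24 in expanded cells and 15.2% ± 0.419 in plasmablasts. Prkcd, an isoform with roles in B cell tolerance, held 52.5% ± 2.60 after 3 h and 66.4% ± 0.187 in plasmablasts. The level of Prkcd itself was 67.8 and 67.0 RPKM in expanded cells and 91.0 and 90.8 in plasmablasts, a log2 fold change of 0.43 that was not called (adjusted p = 1).

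In the other 3 families a relative of the member held a sizeable share. Vav2 was 57.5% ± 1.04 of the Vav factors at 3 h and Vav1 40.6% ± 1.03, while Vav1 was at 53.1% to 63.5% at each other stage. Vav2 ran at 39.6 and 39.3 RPKM at 3 h, beside 36.3 and 36.1 in naive cells, and was not called (adjusted p = 1). Tec made up 16.8% to 34.9% of the Tec family and Btk 64.8% to 83.0%, with Tec called up in plasmablasts (log2 fold change 1.39, adjusted p = 1.7e-05) where Btk was not. Bank1, a scaffold related to BCAP, exceeded Pik3ap1 in naive cells, at 325 and 345 RPKM, while at 33 h its 146 and 118 RPKM overlapped the values of Pik3ap1. In plasmablasts Bank1 was at 6.48 and 6.86 RPKM, a fall of 3.28 on the log2 scale from expanded cells (adjusted p = 3e-09), and Pik3ap1 held 92.1% ± 0.634 of the pair beside 38.4% ± 0.764 in naive cells.

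**Figure D3:**
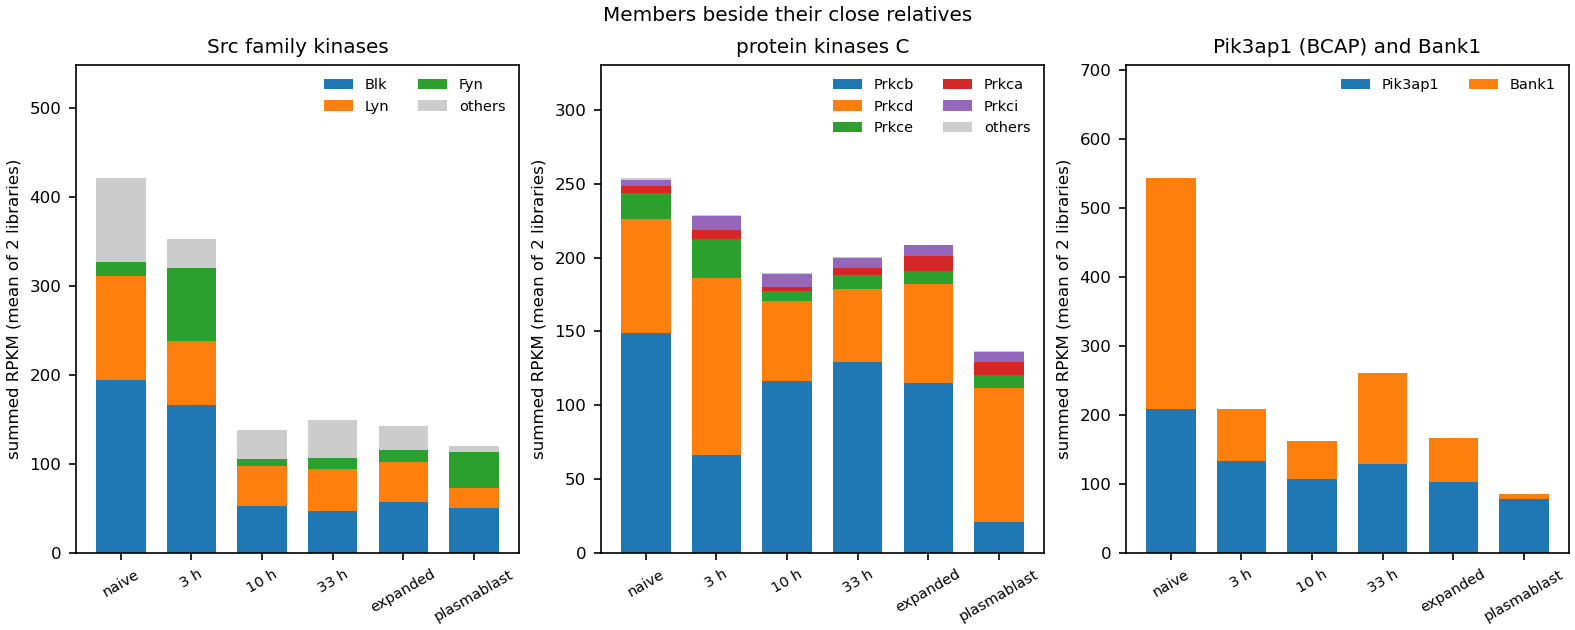
Summed RPKM (vertical axis, mean of 2 libraries) of the Src family kinases, the protein kinases C, and Pik3ap1 with Bank1 at the 6 stages, each bar divided by gene with the remaining relatives merged as others. Fyn widens at 3 h and in plasmablasts, Prkcb narrows at the same stages to 29.0% and 15.2% of its family, and Bank1 is close to absent in plasmablasts.

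The receptor and coreceptor genes, upstream of the members, fell in most cases. Cd79a, a signalling chain of the receptor, was at 2382 ± 127 RPKM in naive cells, 1020 ± 17.0 after 3 h and 448 ± 6.64 after 10 h (log2 fold changes -1.22 and -1.19, adjusted p = 7.8e-06 and 2.9e-05), and at 747 ± 43.9 in plasmablasts. Cd79b, its partner, was at 2078 ± 48.3 RPKM in naive cells and 829 ± 27.3 after 10 h, with a call from 3 to 10 h (-0.86, adjusted p = 0.015) that 3 of 23 alternatives lost. Cr2, the complement receptor of the B cell coreceptor, went from 122 ± 4.78 RPKM in naive cells to 3.91 ± 0.125 in expanded cells and 9.03 ± 0.889 in plasmablasts, where it was called up relative to expanded cells (1.21, adjusted p = 7.7e-05). Cd81, a tetraspanin of the coreceptor, was called up between naive cells and plasmablasts, at 84.1 ± 2.82 and 194 ± 5.91 RPKM (1.20, adjusted p = 0.00067).

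Downstream and inhibitory genes were taken from lists of the pathway's arms. Of 106 tested genes in all lists without the members, 10 were called up and 43 down from naive to 3 h, 10 up and 28 down from 3 to 10 h, 15 up and 3 down from 10 to 33 h, 8 up and 11 down from 33 h to expanded cells, and 13 up and 23 down from expanded cells to plasmablasts. At 3 h these calls came to 50% of the lists beside 45% of all genes, with 24.2% of all genes down, and the lists' median log2 fold change was -0.43 beside -0.03. In plasmablasts they came to 34% beside 26.1%.

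Inhibitors of the pathway were called down more than up in the early hours. Of 21, none was called up and 13 were called down from naive to 3 h, and 6 were called up and none down from 10 to 33 h, when no member was called. Sla, an adaptor that promotes the removal of receptors, fell by 3.61 on the log2 scale at 3 h (adjusted p = 2e-08), the largest fall of the list, and rose by 1.66 in plasmablasts (adjusted p = 7.2e-05). Cd22, a receptor that Lyn phosphorylates and that recruits phosphatases, fell by 7.95 in plasmablasts (adjusted p = 5.7e-11), but CD22 was the antigen by which these cells were sorted.

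Of 12 genes of the PI3K and Akt arm, none was called up and 3 were called down at 3 h, led by Dapp1, an adaptor that binds the lipid product of PI3-kinase (-2.36, adjusted p = 5.8e-09), and 1 was called up in plasmablasts, Pik3cb, a catalytic subunit at 1.46 ± 0.00960 RPKM there (1.08, adjusted p = 0.01, lost in 3 of 23 alternatives). Of 17 calcium and NFAT genes, 1 was called up and 7 down at 3 h. The store-operated channel genes went opposite ways, Orai1 rising by 1.76 (adjusted p = 4.9e-07) and Orai2 falling by 2.31 (adjusted p = 6.4e-08). In plasmablasts Itpr1, the calcium release channel downstream of Plcg2, fell by 2.18 (adjusted p = 7.4e-07) and Ppp3cc, a catalytic subunit of calcineurin, rose by 1.12 (adjusted p = 0.00015).

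Of 10 genes of the IKK arm, between protein kinase C and NF-κB, 1 was called up and 2 down at 3 h, with a median log2 fold change of -0.16. Map3k7, which encodes the kinase TAK1, was the one called up (0.86, adjusted p = 0.0015, lost in 1 of 23 alternatives).

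Of 19 genes of the Ras, MAP kinase and Rac arm, 4 were called up and 3 down at 3 h, and 1 up and 4 down in plasmablasts. The diacylglycerol-regulated exchange factors that load Ras and Rap act downstream of Plcg2. Rasgrp1 fell by 2.26 after 3 h (adjusted p = 1.3e-07) and Rasgrp2 fell by 2.87 in plasmablasts (adjusted p = 2.7e-08). Map2k2, the kinase MEK2, was called up in plasmablasts (0.72, adjusted p = 0.048), a call lost in 12 of 23 alternatives.

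**Figure D4:**
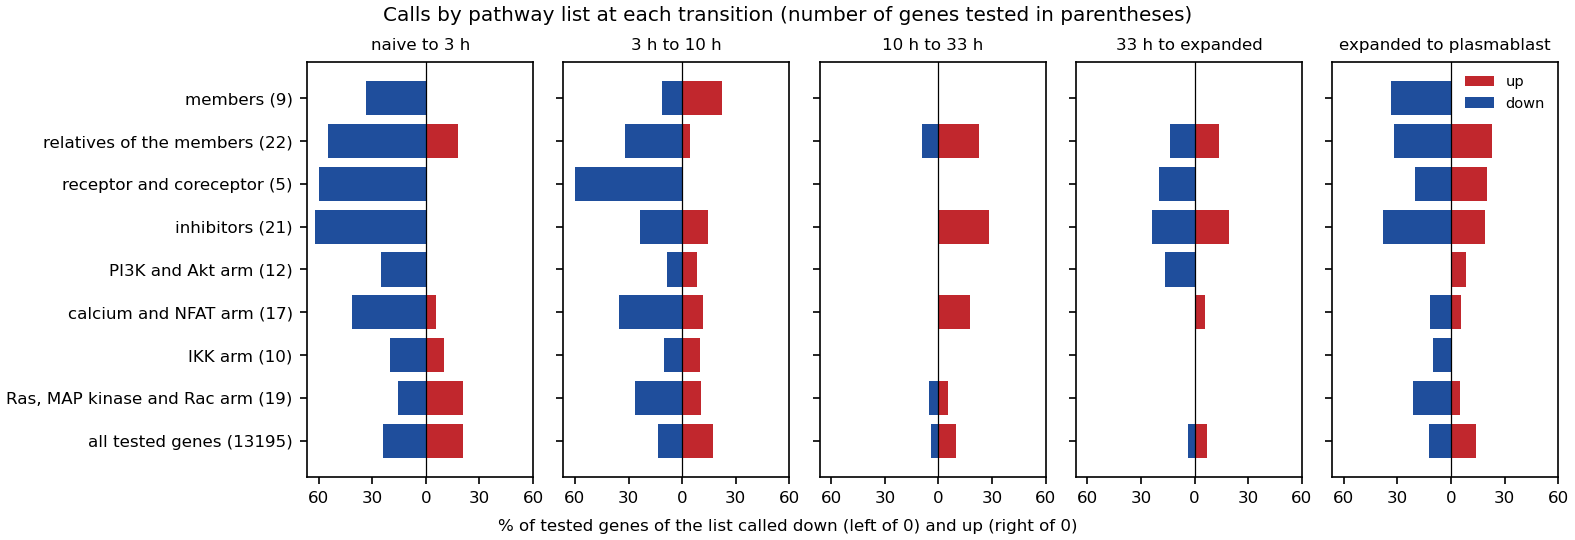
Percentage of tested genes called down (blue, left of 0) and up (red, right of 0) in the members, 7 lists of the pathway and all 13195 tested genes (rows) at 5 transitions (panels). At naive to 3 h, 13 of 21 inhibitors and 12 of 22 relatives were called down beside 24.2% of all genes.

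Some genes followed single members closely over the 12 libraries. The 3 genes nearest to each member were taken by Pearson's r of log2 CPM among 5362 genes of sufficient level, as a description, since the points share stages and libraries. Pik3ap1 was nearest to Cd37 (r = 0.99), a tetraspanin of B cells, then Elf4 and Cdk19. Prkcb was nearest to Cyrib (0.988), Cd22 (0.985) and Twf2 (0.979), and Plcg2 to Atp2a3 (0.986), a calcium pump of the endoplasmic reticulum, Esyt1 and Map4k2. Lyn was nearest to Gpsm3 (0.985), Limk2 and H2-Oa, and Blk to Spi1 (0.98), which encodes the transcription factor PU.1, Fam117b and Nop53. Btk was nearest to Add3 (0.979), Gxylt1 and Map3k1, Blnk to Itm2c (0.976), Pcyt1a and Ebp, Syk to Clic1 (0.963), Coro1a and Rasgrp2, and Vav1 to Tnk2 (0.963), Slc25a11 and Patz1. Among the members themselves r ran from -0.65 (Blnk with Lyn) to 0.95 (Lyn with Pik3ap1).

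In RefSeq, 4 of the 9 (Lyn, Blk, Pik3ap1 and Prkcb) overlap the span of 7 non-coding genes or pseudogenes, of which 1, 6330407A03Rik within Lyn, had a row in the count table, with at most 3 counts in a library. Reads of the other 6 were not measured. The strands of these genes were not compared with those of the members. Whether the counting used strand is not stated either, so that reads from such overlapping genes could not be separated.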

How the data were processed

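RNA-Seq of B cells was analysed from 12 libraries, grouped by the labels into 6 stages of 2 biological replicates each. The authors prepared TruSeq libraries, made paired-end NextSeq 500 reads, mapped them to mm10 by Rsubread, and obtained gene counts with featureCounts and the inbuilt Entrez annotation. The submitters' processing notes also name CASAVA 1.8.2 and GRCm38. The deposited values are raw counts per gene with the exon length. Whether a read pair was counted once is not stated. The 12 single-sample files held the same counts as the table. Hi-C data were left out.

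Of 27179 Entrez IDs, 25275 were matched to RefSeq GRCm38.p6 for symbols. The 1904 unmatched IDs (1.41% to 2.08% of counts), 15 mitochondrial genes, 33 rRNA genes and 248 variable immunoglobulin segments were removed, which left 86.3% to 92.9% of the counts. X and Y genes, which the study removed, were kept because Btk is X-linked. filterByExpr kept 13195 of 24979 genes. Counts were normalized with TMM and fitted in R 4.3.3 with edgeR 4.0.16 (robust quasi-likelihood, one-way layout of all 12 libraries), with glmTreat against a fold change of 1.5 as the main test and glmQLFTest for any change, both two-sided with Benjamini-Hochberg adjustment at 0.05. RPKM used the deposited exon lengths and TMM-scaled library sizes, and marker sums are CPM of the library total. DESeq2 1.42.0, other scalings and filters, a replicate block and leaving out each library were alternatives. Counts were simulated for all 13195 genes at this sample size. Changes were placed between expanded cells and plasmablasts, only in genes with a mean fitted count over 50. In that comparison 28 of 50 genes changed 2-fold, 47 of 50 changed 3-fold and 49 of 50 changed 4-fold were called. Of the unchanged genes 0 were called, and other transitions and changes at lower counts were not simulated. Counting error is small at these depths, and n = 2 limits the precision.

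The members and gene lists were chosen with earlier results of these data known. Genes named beside the members were the tested relatives, the receptor and coreceptor genes, the called gene with the largest rise and fall of each other list at naive to 3 h and at expanded cells to plasmablasts, and the 3 genes most like each member with a mean log2 CPM of at least 5 (prior count 2). Promoter sequences came from RefSeq and were found for 7 of the 9 members, not for Lyn and Blk. Results of some listed genes are not reported here.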

Additional observations from a re-analysis of the deposited data

How the results depend on the processing

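Over 23 alternatives to each of 63 member comparisons, 1402 results kept their direction and side of the threshold, 17 calls were lost, 7 gained and 16 directions reversed. Scaled by library size alone and not by TMM, the members called from naive to 3 h went from 3 to 6, all down, adding Blnk (-0.79, adjusted p = 0.0057), Lyn (-0.91, 0.0025) and Pik3ap1 (-0.87, 0.0067). Plcg2 was then called down between naive cells and plasmablasts (-0.72, 0.029). That scaling moved the median of all genes by -0.21 from naive to 3 h, 0.33 from 3 to 10 h, -0.33 from expanded cells to plasmablasts and -0.27 from naive cells to plasmablasts. The calls up and down over all genes were then 2150 and 3828 (main 2755 and 3188), 3537 and 1027 (2269 and 1760), 1237 and 3022 (1843 and 1600), and 2837 and 3958 (3497 and 3068). From 3 to 10 h a single member, Blk, was called with DESeq2 size factors, by DESeq2's Wald test and with only the 4 libraries compared (1 each). The genes called from 33 h to expanded cells numbered 1376, but 913 by DESeq2 and 724 with at least 10 counts in every library, where 10309 genes were tested. A filter of this kind also called Lyn down from naive to 3 h (-0.77, 0.04).

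Leaving out single libraries gave 1 to 3 members called from 3 to 10 h (1 without either 10 h replicate), 900 to 1542 genes from 33 h to expanded cells (900 without 33 h replicate 1) and 11 to 20 pathway genes there (main 19; 11 without expanded replicate 2). None of the 16 reversals was of a called change. Btk from 3 to 10 h was 0.18 with library size alone and -0.38 to 0.052 without single libraries (0.052 without 3 h replicate 1). Btk from 10 to 33 h was -0.028 with library size alone and -0.064 to 0.12 without single libraries (-0.064 without 33 h replicate 1). Btk from expanded cells to plasmablasts was 0.0125 with DESeq2 size factors and by DESeq2, 0.0074 with only the 4 libraries, 0.00013 with at least 10 counts and -0.049 to 0.032 without single libraries (0.032 without plasmablast replicate 1). Blnk from 33 h to expanded cells was -0.0024 without a filter and -0.012 to 0.082 without single libraries (-0.012 without expanded replicate 2). Plcg2 there was -0.013 to 0.096 without single libraries (-0.013 without 33 h replicate 2), and Pik3ap1 from 3 to 10 h was 0.014 with library size alone. The causes were not tested.

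With the X and Y genes removed, Btk was not tested, and 2 members were called from naive to 3 h. Deviations of replicate 1 from the stage mean correlated at -0.136 to 0.0968 over 15 stage pairs, with 0 pairs over 0.1. The highest value was that of expanded cells with plasmablasts. With 2 libraries per stage, and numbers that need not match between stages, these values cannot decide whether libraries were paired. With a replicate block, 3, 3, 0, 0 and 3 members were called over the successive transitions, as without it, and 5919 genes from naive to 3 h beside 5943.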
